A study of Homo sapiens with 8 samples.

Results

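The Eph receptors, ephrins, semaphorins, plexins, Robo and UNC5 receptors, Slits and netrins were described in hCMEC/D3, an immortalised human brain microvascular endothelial line used in culture as a model of the blood-brain barrier. Members were the listed genes whose symbols belong to these families, which gave 66 of 23346 listed genes: 14 Eph receptors, 8 ephrins, 20 semaphorins, 9 plexins, 4 Robo receptors, 3 Slits, 4 UNC5 receptors and 4 netrins. Polyadenylated RNA was sequenced from 8 libraries of this line, which carried no treatment or genotype label and formed 1 group, so the study held no contrast between conditions. Nothing in the labels says whether the 8 replicates were separate cultures, so p-values measure the spread between these samples, which may be technical.

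Library totals ran from 69388544 to 90205244 counts. Every count was even, so a step of 2 counts was read as 1 read pair. Replicates 2, 7 and 8 stood apart from the rest: across the 11601 detected genes outside the families with a known transcript length, the slope of a library's log2 deviation per doubling of transcript length was -0.23, -0.11 and -0.34 in these, and 0.09 to 0.15 in the others. All 12 endothelial markers checked were detected (1 CPM or more in every library), summing to 3529.9 to 5759 CPM. Of 6 astrocyte and 6 microglia markers 0 were, summing to 0.820 to 1.19 and 0.544 to 1.62 CPM, and AQP4 had no counts. Neuron (3 of 8), mural cell (5 of 8), oligodendrocyte (1 of 6, MBP) and epithelial (1 of 6, KRT19) markers summed to 97.9 to 136, 48.3 to 72.5, 24.8 to 42.9 and 4.40 to 5.51 CPM, and the neuron marker STMN2 had no counts. All libraries are labelled as hCMEC/D3, so these sums do not show that cells of another type were present. In bulk samples, which cells carried these RNAs cannot be told.

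These families were named for steering growing axons and also pattern blood vessels. Eph receptors are tyrosine kinases that bind ephrins on a neighbouring cell, and signals pass into both cells. Plexins are the receptors of semaphorins, and most secreted class 3 semaphorins also need a neuropilin. Robo1 and Robo2 bind Slits, and netrins act through UNC5, DCC and neogenin. In vessels, ephrin-B2 marks arteries and its receptor EphB4 marks veins, plexin-D1 and UNC5B guide sprouting, and Robo4 is a receptor of the endothelium.

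hCMEC/D3 cells carried RNA of few Eph receptors, of most ephrins, semaphorins and plexins, of Robo4 and Robo3, of UNC5B and of netrin-4, and no Slit was detected. A gene was called detected at 1 CPM or more in all 8 libraries, where CPM is the count scaled to a library size set by TMM, edgeR's trimmed mean normalisation. This held for 35 of 66 members (53.0%), beside 51.3% of all listed genes, so the share of detected members was near the background. By family, 4 of 14 Eph receptors, 6 of 8 ephrins, 14 of 20 semaphorins, 7 of 9 plexins, 2 of 4 Robo receptors, 0 of 3 Slits, 1 of 4 UNC5 receptors and 1 of 4 netrins were detected. The mean level reached 100 CPM for 10 members, namely PLXND1, PLXNA2, PLXNB2, EPHA2, SEMA3F, EPHB4, ROBO4, NTN4, SEMA6B and PLXNA1, beside 10.7% of all listed genes. At the other end, 25 members stayed under 1 CPM in every library, and 9 of these had a mean at or under the level of 3 read pairs per library.

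Summed over each family and divided by transcript length, the plexins were the most abundant receptors at 166 ± 11.6 CPM per kilobase (SD, n = 8), followed by the Eph receptors at 98.0 ± 9.67 and the Robo receptors at 45.0 ± 11.4. Among ligands the semaphorins summed to 137 ± 18.9 CPM per kilobase, the ephrins to 68.9 ± 18.4 and the netrins to 42.0 ± 6.61. The UNC5 receptors reached 1.47 ± 0.587 and the Slits 0.208 ± 0.0812 CPM per kilobase. Levels of different genes are compared below on this scale, which uses the canonical transcript of each gene.

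**Figure D1:**
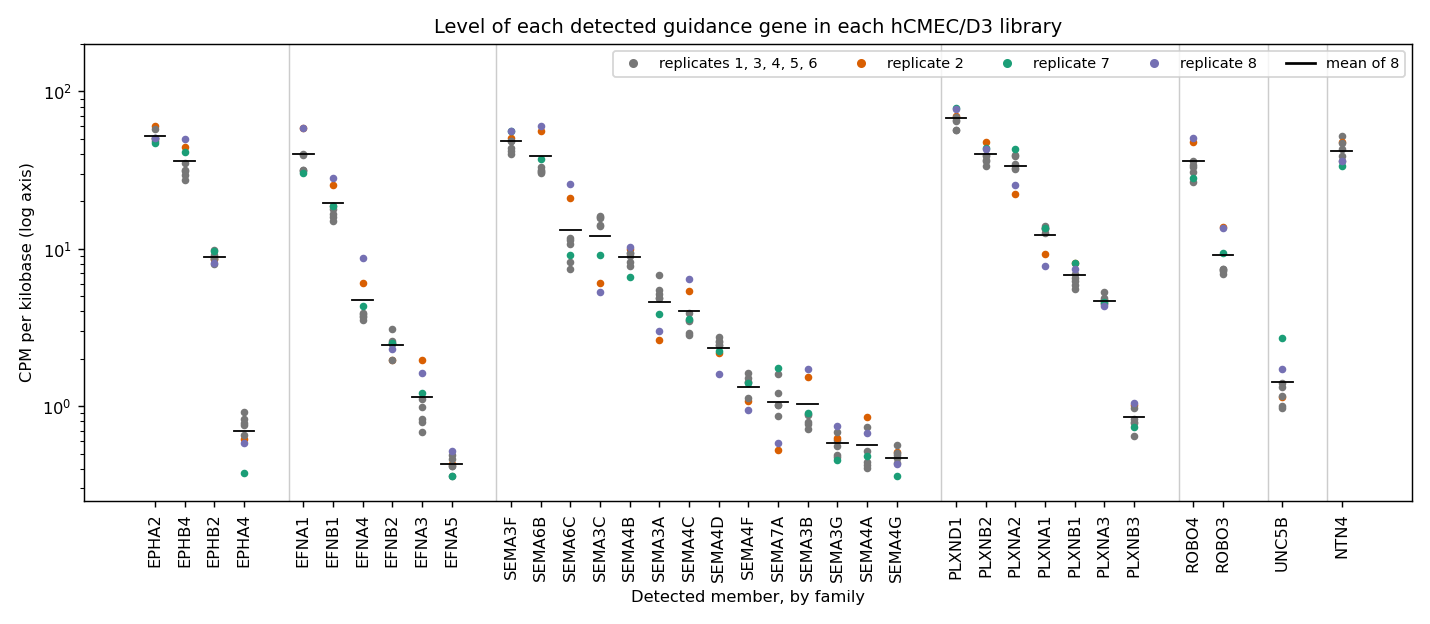
CPM per kilobase of transcript (log axis) of the 35 detected members in each of 8 libraries, grouped by family; points are libraries, coloured for replicates 2, 7 and 8, and bars are means. PLXND1 was highest at 67.4 CPM per kilobase, and 1 UNC5 receptor, 1 netrin and no Slit appear.

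Among the Eph receptors, EPHA2, EPHB4 and EPHB2 were far above the rest. EPHA2 (chromosome 1, 16450832 to 16482582, minus strand, 17 exons), the A-type receptor of endothelium and epithelium, had 189.7, 236, 197, 199, 199, 228, 185 and 199.5 CPM in replicates 1 to 8. It lay within a narrow band, with a coefficient of variation of 8.86% and 51.7 ± 4.59 CPM per kilobase (SD, n = 8). EPHB4 (chromosome 7, 100400187 to 100425143, minus strand, 17 exons), the venous receptor of ephrin-B2, had 136, 192, 128, 139, 118, 152, 179 and 218 CPM. Its highest values were in replicates 8 and 2, and its mean was 36.3 ± 8.04 CPM per kilobase. EPHB2 (chromosome 1, 23037331 to 23241823, plus strand, 16 exons), a receptor of B-type ephrins, had 95.1, 94.6, 96.5, 101, 108, 88.2, 107 and 90.2 CPM. No library stood out for EPHB2, whose coefficient of variation was 7.33%. Its transcript is long, at 11035 nt, so it came to 8.84 ± 0.648 CPM per kilobase.

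EPHA4 (chromosome 2, 222282747 to 222437010, minus strand), a receptor that binds ephrins of both types, was the lowest detected Eph receptor at 5.84, 3.92, 5.29, 4.85, 4.20, 4.98, 2.39 and 3.74 CPM. Its lowest value was in replicate 7. The order EPHA2, EPHB4, EPHB2, EPHA4 per kilobase held in 8 of 8 libraries, although the ranges of EPHA2 and EPHB4 overlapped between libraries. The other 10 Eph receptors had means of at most 0.529 CPM, the value of EPHA1. Of these, EPHB3 had 0.398 ± 0.140 CPM and EPHB6, which lacks kinase activity, had 0.364 ± 0.0825 CPM. EPHA6 had no counts in any library, which allows up to 0.0665 to 0.0880 CPM (3 read pairs per library, counting error only). EPHA7 had 3 read pairs in all libraries together, EPHA3 8, EPHA8 9 and EPHB1 23. EPHA10 and EPHA5 had means of 0.378 and 0.170 CPM. EPHA1, EPHB3, EPHB6 and EPHA10 had reads in all 8 libraries and lay under the detection level but above the level of 3 read pairs in each.

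The ephrins present were led by EFNA1 and EFNB1. EFNA1 (chromosome 1, 155100349 to 155107386, plus strand), a membrane-anchored ligand of EPHA2, had 61.1, 91.5, 49.1, 49.1, 48.2, 62.2, 46.7 and 90.8 CPM in replicates 1 to 8. Replicates 2 and 8 were clearly above the other 6, which spanned 46.7 to 62.2 CPM. EFNB1 (chromosome X, 68048840 to 68062006, plus strand), a transmembrane ligand of EphB receptors, had 52.4, 83.4, 54.7, 59.2, 49.5, 61.7, 61.5 and 93.5 CPM. Again the 2 highest libraries were replicates 8 and 2.

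EFNB2 (chromosome 13, 107142079 to 107187388, minus strand), the arterial ligand, was much lower, with a lowest of 9.75, a median of 12.5 and a highest of 15.4 CPM. Replicate 3 was its lowest library and replicate 1 its highest, and replicates 2 and 8 lay within the range of the others. EFNA3 and EFNA4 lie in the same cluster as EFNA1 on chromosome 1, on the same strand. EFNA4 (chromosome 1, 155036213 to 155042029, plus strand), another lipid-anchored ligand, had 4.64, 7.65, 4.93, 4.71, 4.41, 4.84, 5.43 and 10.9 CPM in replicates 1 to 8. EFNA3 (chromosome 1, 155051348 to 155060014, plus strand) had 2.09 ± 0.799 CPM (SD, n = 8). In both, the 2 highest libraries were again replicates 8 and 2. EFNA5 (chromosome 5, 106712590 to 107006596, minus strand), the lowest detected ephrin, had a lowest of 1.92, a median of 2.28 and a highest of 2.79 CPM. Per kilobase the order EFNA1, EFNB1, EFNA4, EFNB2, EFNA3, EFNA5 held in 8 of 8 libraries. EFNB3 missed detection at 1.27 ± 0.285 CPM, with 0.946 CPM in replicate 8, and EFNA2 had 0.200 ± 0.122 CPM. EFNA4 overlaps another listed gene, and strand use in the counting is not given in the sources used here, so its reads are uncertain.

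For 22 preset pairs of members, the log2 ratio of (CPM + 0.1) per kilobase was taken within each library. The pairs were chosen with earlier results of these data known, so a small p-value shows only how far the libraries shared a sign. The mean ratio was tested against 0 by flipping the signs of the 8 ratios in all 256 ways (an exact permutation test, two-sided), with Benjamini-Hochberg adjustment over the pairs. In 21 of 22 pairs every library had the same sign, with an exact permutation p of 0.00781, the smallest this test can give with n = 8, and an adjusted p of 0.00818. The 21 include ROBO1 and ROBO2, SLIT2 and SLIT3, and UNC5B and UNC5C, whose second gene was under 3 read pairs per library. Without length the exact permutation p of ROBO1 and ROBO2 was 0.0156, so its sign rested partly on transcript length. EPHB4 exceeded EFNB2 by 3.87 ± 0.43 (log2, SD, n = 8), a 14.6-fold difference, and the ratio of EFNB2 to EFNB1, the other detected B-type ligand, was -2.98 ± 0.46. EPHA2 exceeded EPHA4 by 6.23 ± 0.39, and EFNA1 exceeded EFNA5 by 6.44 ± 0.36 (5.63 on the authors' CQN values). The venous receptor was above the arterial ligand at the RNA level in every library.

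Per kilobase, the order of the receptor EPHA2 and its ligand EFNA1 was not the same in all libraries. Their ratio was 0.41 ± 0.34 (log2), positive in 7 of 8 libraries and -0.21 in replicate 8 (exact permutation p = 0.0234, adjusted p = 0.0234, n = 8). On the authors' CQN values the ratio was 1.16 ± 0.28, and on CPM without length it was 1.76. On both of these scales EPHA2 was the higher in every library (exact permutation p = 0.00781 on each). The size of the ratio and the reversal in replicate 8 thus depended on the scale. Per kilobase, EPHA2 exceeded EPHB4 by 0.54 ± 0.30 in 8 of 8 libraries, from 0.01 in replicate 8 to 0.89 in replicate 5. Without length and on CQN values this ratio was 0.40 on each scale (exact permutation p = 0.0234 on each). That p is above the smallest this test can give, so the libraries did not all share a sign there. Per kilobase, the ratios of EPHA2 to EFNA1 and to EPHB4 were both smallest in the library with the steepest length slope. The part of that slope in them was not tested.

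**Figure D2:**
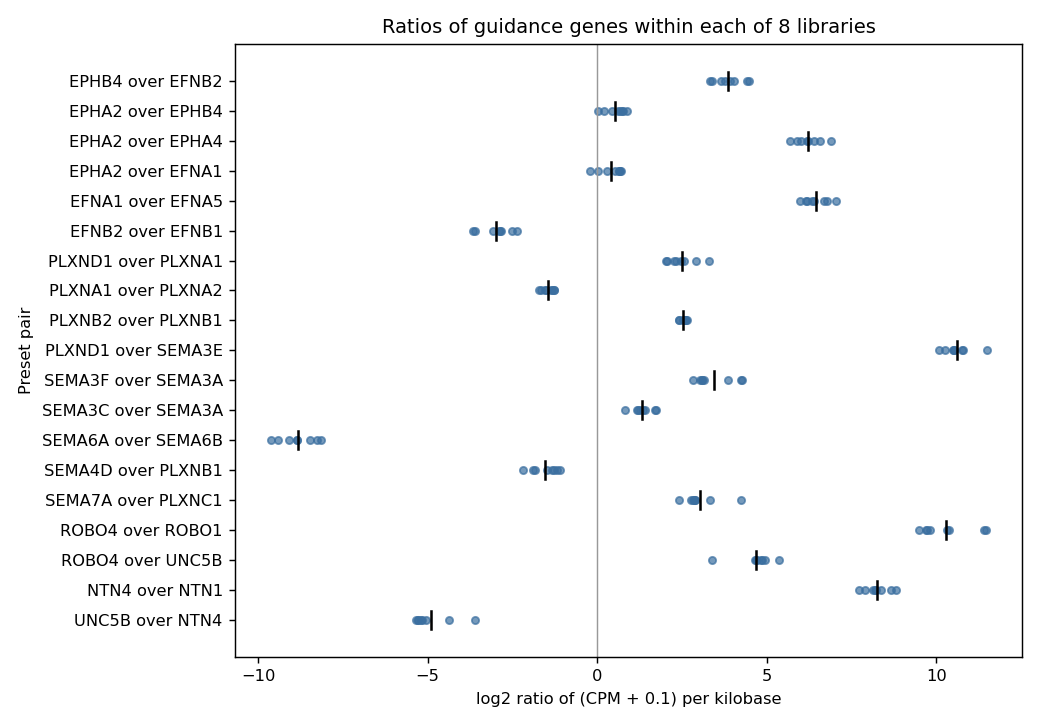
log2 ratio of (CPM + 0.1) per kilobase for 19 preset pairs in each of 8 libraries (points) with the mean (bar); 3 pairs with a gene at or under 3 read pairs per library are left out. The ratio of EPHA2 to EFNA1 is the one that crosses 0, from -0.21 to 0.70.

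The semaphorins were the largest family, with 14 of 20 members detected, and spanned 1.84 to 174 mean CPM. SEMA3F (chromosome 3, 50192848 to 50226508, plus strand, 19 exons), a secreted ligand of neuropilin-2 that repels sprouting endothelium, had 144, 183, 174, 159, 176, 150.1, 201 and 203 CPM in replicates 1 to 8. Replicates 8 and 7 were its highest and replicate 1 its lowest, and the mean was 48.1 ± 6.05 CPM per kilobase. SEMA6B (chromosome 19, 4542600 to 4559771, minus strand, 17 exons), a transmembrane ligand of A-type plexins, had 117, 217, 121, 128, 119, 122, 143 and 233 CPM. Replicates 2 and 8 stood above the other 6 libraries, which ended at 143 CPM. SEMA3F exceeded SEMA6B per kilobase in 6 of 8 libraries, so their order was not resolved.

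SEMA6C (chromosome 1, 151104163 to 151119140, minus strand, 19 exons), another transmembrane class 6 member, had 44.3, 81.8, 32.1, 41.7, 28.9, 45.5, 35.3 and 99.8 CPM. It was highest in replicates 8 and 2 and lowest in replicate 5. SEMA3C (chromosome 7, 80371854 to 80548667, minus strand, 18 exons), a secreted ligand that signals through neuropilins and plexins, had 77.1, 29.4, 76.2, 67.7, 68.8, 78.7, 44.6 and 25.9 CPM. Replicates 8 and 2, the highest libraries of SEMA6C, were its lowest, followed by replicate 7, while the other 5 lay between 67.7 and 78.7 CPM. Per kilobase SEMA6C was higher than SEMA3C in 2 of 8 libraries, with overlapping ranges, so these neighbours in the order were not resolved either. SEMA3A (chromosome 7, 83587659 to 83824217, minus strand), the class 3 ligand of neuropilin-1, had 39.5, 21.5, 55.2, 42.2, 44.6, 39.6, 31.0 and 24.2 CPM, and was also lowest in replicates 2, 8 and 7.

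Within class 3, SEMA3F exceeded SEMA3A by 3.44 ± 0.58 and SEMA3C exceeded SEMA3A by 1.33 ± 0.29 (log2, SD, n = 8), the latter 0.60 on the authors' CQN values. SEMA3B and SEMA3G were low at 3.27 ± 1.21 and 2.90 ± 0.518 CPM. SEMA3D missed detection at 1.54 ± 0.630 CPM, since it fell to 0.331 CPM in replicate 8, and SEMA3E, the ligand that binds plexin-D1 without a neuropilin, had a lowest of 0.0946, a median of 0.240 and a highest of 0.292 CPM. Among the transmembrane class 4 members, SEMA4B was highest at 33.4 ± 4.57 CPM, followed by SEMA4C at 14.6 ± 4.59 CPM. SEMA4D, a ligand of plexin-B1, had a lowest of 7.31, a median of 11.1 and a highest of 12.5 CPM, with its lowest values in replicates 8 and 2. SEMA4F, SEMA4G and SEMA4A had 7.99, 2.12 and 1.84 CPM. SEMA4G overlaps MRPL43 on the opposite strand, so its reads cannot be assigned with certainty.

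SEMA7A (chromosome 15, 74701630 to 74726299, minus strand), which is anchored to the membrane by a lipid and binds integrins and plexin-C1, had 3.43, 1.77, 3.43, 4.08, 5.39, 2.91, 5.92 and 1.96 CPM. It was lowest in replicates 2 and 8 and highest in replicates 7 and 5. Its receptor gene PLXNC1 (chromosome 12, 94542499 to 94701451, plus strand) was not detected, with a lowest of 0.465, a median of 1.01 and a highest of 1.18 CPM, and SEMA7A exceeded it by 3.02 ± 0.55 (log2). Both class 5 semaphorins were under the detection level, with means of 0.197 CPM for SEMA5A and 0.0796 for SEMA5B. SEMA6A, a class 6 ligand of plexin-A2 and plexin-A4, had a lowest of 0.352, a median of 0.446 and a highest of 0.655 CPM, and its log2 ratio to SEMA6B was -8.84 ± 0.52 (-9.62 on CQN values). SEMA6D had 0.103 CPM. Class 6 was thus represented by SEMA6B and SEMA6C.

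The plexins had 7 of 9 members detected and 4 above 100 CPM. PLXND1 (chromosome 3, 129274056 to 129325582, minus strand, 36 exons), the endothelial receptor of SEMA3E, was the highest member in CPM per kilobase at 67.4 ± 8.05. Its counts came to 457, 482, 393, 449.7, 394, 478, 545 and 531 CPM in replicates 1 to 8. Replicates 7 and 8 were its highest and replicate 3 its lowest, with a coefficient of variation of 11.9%. PLXNB2 (chromosome 22, 50713408 to 50746001, minus strand, 37 exons), a receptor of class 4 semaphorins, had 251, 306, 215, 249, 231, 234, 281 and 274 CPM, highest in replicate 2. PLXNA2 (chromosome 1, 208195588 to 208417665, minus strand, 32 exons), a receptor of class 3 and class 6 semaphorins, had 372, 257, 449.8, 396, 454, 373, 494 and 294 CPM, with its lowest values in replicates 2 and 8. PLXNB2 and PLXNA2 were not separated per kilobase, since PLXNB2 was higher in 6 of 8 libraries.

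PLXNA1 (chromosome 3, 126707437 to 126756235, plus strand) had 124, 86.1, 126, 126, 129.9, 117, 125 and 72.0 CPM, and replicates 8 and 2 were its lowest. PLXNB1 (chromosome 3, 48445261 to 48471460, minus strand), the receptor of SEMA4D, had 44.5, 58.5, 39.7, 46.7, 42.1, 49.4, 58.4 and 53.4 CPM. PLXNA3 and PLXNB3 had 51.0 ± 3.45 and 5.26 ± 0.873 CPM (SD, n = 8), and PLXNA3 had the lowest coefficient of variation of the detected members at 6.75%. PLXNA4 was not detected at 0.904 ± 0.359 CPM.

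Among the plexin pairs, PLXND1 exceeded PLXNA1 by 2.49 ± 0.44, the ratio of PLXNA1 to PLXNA2 was -1.46 ± 0.17, and PLXNB2 exceeded PLXNB1 by 2.54 ± 0.09 (log2, SD, n = 8). Of 3 ligand and receptor pairs, the receptor was higher in PLXND1 and SEMA3E (ratio 10.61 ± 0.43) and in PLXNB1 and SEMA4D (ratio of SEMA4D to PLXNB1 -1.53 ± 0.40, or -2.26 on CQN values), and the ligand was higher in SEMA7A and PLXNC1. The 0.1 CPM added to both genes makes the ratio to SEMA3E smaller than without it.

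ROBO4 and ROBO3 were the Robo receptors present, and the axonal receptors ROBO1 and ROBO2 were nearly without reads. ROBO4 (chromosome 11, 124754114 to 124767831, minus strand, 18 exons), a short Robo that maintains the endothelial barrier, had 147, 204, 132, 142, 113, 154, 122 and 218 CPM in replicates 1 to 8. ROBO3 (chromosome 11, 124735305 to 124751370, plus strand, 28 exons), which steers axons across the midline, had 32.9, 62.0, 31.3, 33.2, 33.5, 33.5, 42.3 and 61.8 CPM. Both genes were highest in replicates 2 and 8. They are neighbours on opposite strands whose 3′ ends are 2743 bases apart. ROBO4 exceeded ROBO3 per kilobase in 8 of 8 libraries, at 35.9 ± 8.80 against 9.12 ± 2.90 CPM per kilobase.

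ROBO1 had 32 read pairs in all 8 libraries together, with a lowest of 0.0222, a median of 0.0959 and a highest of 0.220 CPM, and ROBO2 had 6 read pairs. ROBO4 exceeded ROBO1 by 10.28 ± 0.77 (log2), again made smaller by the 0.1 CPM added. The Slits, the ligands of Robo1 and Robo2, were also low. SLIT2 had 1.53, 0.709, 1.60, 2.01, 1.45, 1.20, 0.901 and 0.355 CPM, with less than 1 CPM in replicates 2, 7 and 8. SLIT1 had 0.416 ± 0.135 CPM, and SLIT3 had 14 read pairs in all. For ROBO1 and ROBO2, SLIT2 and SLIT3, and UNC5B and UNC5C no ratio is given, since the mean of the second gene was under the level of 3 read pairs per library. SLIT1 and SLIT2 overlap other listed genes.

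NTN4 (chromosome 12, 96051583 to 96184536, minus strand, 10 exons), a netrin of basement membranes that binds laminin, was the single netrin detected, at 188, 172, 140.4, 156, 131, 170.4, 121 and 130.1 CPM. Its highest value was in replicate 1 and its lowest in replicate 7, and replicates 2 and 8 lay within the range of the others. NTN1, the classical axon attractant, had a lowest of 0.426, a median of 0.717 and a highest of 0.998 CPM, and NTN4 exceeded it by 8.25 ± 0.37 (log2). NTN3 and NTN5 had 0.173 and 0.134 CPM.

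UNC5B (chromosome 10, 72972292 to 73062635, plus strand, 17 exons), the netrin receptor of endothelial tip cells, had 9.04, 7.87, 6.68, 7.93, 6.84, 9.57, 18.7 and 11.8 CPM. Replicate 7 stood above the other 7 libraries, which ended at 11.8 CPM. The netrin NTN4 exceeded it in every library, with a log2 ratio of UNC5B to NTN4 of -4.91 ± 0.61, and ROBO4 exceeded it by 4.68 ± 0.57. UNC5A had 0.127 ± 0.124 CPM. UNC5C had 3 read pairs in total and UNC5D 5, so no fold is given for them. UNC5B overlaps another listed gene.

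For each of the 11980 detected genes, edgeR asked whether its counts spread more between the 8 libraries than the dispersion trend at its abundance allows, by a test of goodness of fit with Benjamini-Hochberg adjustment. Of the 35 detected members, 2 varied more than genes of their abundance, beside 4.66% of all detected genes. An unadjusted p under 0.05 in this test was found for 4 of the 35, beside 1571 of all 11980. Both shares were near the background. The 2 called after adjustment were SEMA6C (edgeR adjusted p = 0.0136) and SEMA3C (edgeR adjusted p = 0.0358). The highest library exceeded the lowest 3.45-fold for SEMA6C and 3.03-fold for SEMA3C. SEMA7A had an adjusted p of 0.110 and UNC5B of 0.430 in the same test. In 0 of 35 members did the highest library exceed the lowest over 4 times, beside 1.95% of all detected genes.

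The call of SEMA6C held in 13 of 16 settings. Without replicate 5 or replicate 8, the adjusted p of SEMA6C in the edgeR test was 0.0798 and 0.0505. Without replicates 2 and 8 together the adjusted p in edgeR was 0.681, and without replicates 2, 7 and 8 it was 0.00419, below the value with all libraries, within a range of 5.98e-07 to 0.681 over all settings. SEMA3C was near the threshold and lost its call whichever library was left out, with edgeR adjusted p from 0.0512 to 0.125, and ranged from 8.20e-06 to 1.00 over all settings. With offsets taken from the authors' CQN values, which adjust for length and GC content, SEMA6C kept the call (edgeR adjusted p = 0.00167) and SEMA3C did not (0.140).

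Under those offsets 3 of 35 members were called, beside 6.26% of all detected genes. SEMA7A was added (edgeR adjusted p = 5.85e-04, range over settings 5.41e-04 to 0.363), as was UNC5B (0.00536, range 2.62e-04 to 1.00, the highest without replicate 7). With the dispersion trend of DESeq2, 11 of 35 members were called, beside 23.5% of all. With a minimum of 10 counts in place of 1 CPM, 4 of 48 members were, beside 4.35%.

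Replicates 2 and 8 were both at the top or both at the bottom of the range for 20 of 35 detected members. In 13 of 35 detected members (37.1%) these were the 2 highest libraries, beside 33.7% of all detected genes, and in 7 of 35 they were the 2 lowest, beside 29.8%. The single highest value lay in replicate 2 or 8 for 20 of 35, beside 45.2% of all, and the single lowest for 8 of 35, beside 39.0%. The 13 were EFNA1, EFNA3, EFNA4, EFNB1, EPHB4, PLXNB3, ROBO3, ROBO4, SEMA3B, SEMA4B, SEMA4C, SEMA6B and SEMA6C, with a median transcript of 3780 nt. The 7 were PLXNA1, PLXNA2, SEMA3A, SEMA3C, SEMA4D, SEMA4F and SEMA7A, with a median of 6075 nt. The share at the top was near that of all genes. Across the 35 members the slope on transcript length was -0.33 and -0.36 (log2 per doubling) in replicates 2 and 8. In replicate 7 the members' slope was 0.10, opposite in sign to the -0.11 of the other genes.

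Transcript lengths of the 13 and the 7 overlapped, at 1254 to 6153 nt and 3376 to 11508 nt. The 15 detected members with neither pattern had a median of 5372 nt. The part of length in the pattern was not tested. The ligands EFNA1, EFNA3 and EFNA4 are the shortest detected members and were high in replicates 2 and 8. PLXNA2 and PLXNA1 are among the longest and were low. Other long members were not: EPHB2 (-0.04 and -0.11, log2) and PLXNA3 (0.01 and -0.12) lay near their means in replicates 2 and 8. PLXNB1 (0.27 and 0.13) and PLXND1 (0.06 and 0.20) lay above theirs. SEMA7A, at 3376 nt, is short and was low in both, while SEMA6C, at 3873 nt, and NTN4, at 3621 nt, are nearly equal in length and differed. The median member lay 0.19 and 0.22 above its own mean (log2) in replicates 2 and 8, where the median other gene lay 0.03 and 0.04 above. Summed endothelial markers were also higher, at 5589 and 5759 CPM in replicates 2 and 8 against 3529.9 to 4554 in the others, with all 12 detected. A sum does not show that each marker moved. Sums of the surface partners and intracellular effectors listed below were lower there. They were 1678 and 1495 CPM against 1995 to 2837, and 6451 and 6662 CPM against 6996 to 7404. The part of these lists in the members' pattern was not tested.

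**Figure D3:**
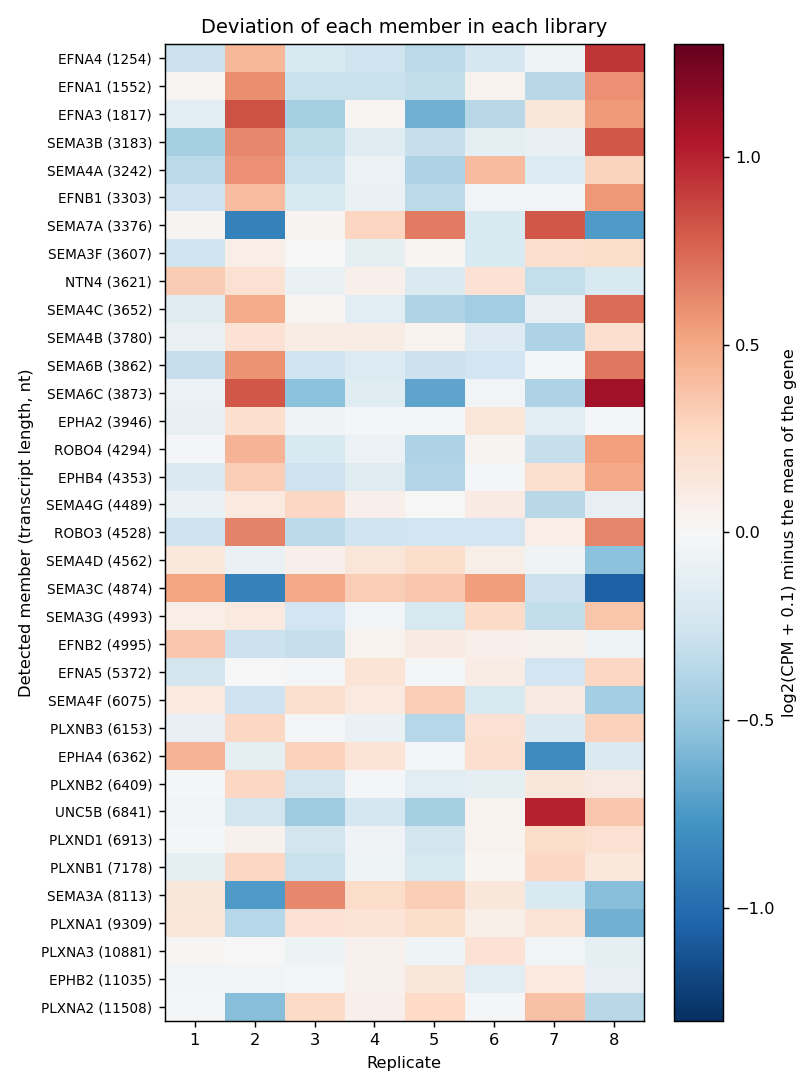
Deviation of log2(CPM + 0.1) from the mean of each gene, for 35 detected members (rows, shortest transcript at the top) in 8 libraries (columns). Replicates 2 and 8 are mostly above the mean for the upper rows and below it for several lower rows, while SEMA7A and SEMA3C are low in both.

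On the authors' CQN scale the libraries are adjusted for GC content and gene length. The CQN values had a smaller spread than CPM for 25 of 35 detected members, beside 74.2% of all detected genes. The median SD over the 8 libraries was 0.32 on log2(CPM + 0.1) and 0.21 on CQN values, beside 0.28 and 0.16 over all detected genes. The SD of SEMA6B fell from 0.40 to 0.12, that of EFNA4 from 0.45 to 0.14 and that of SEMA3C from 0.65 to 0.33. Replicates 8 and 2 were still the highest for SEMA6B and the lowest for SEMA3C on CQN values.

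SEMA6C, SEMA7A, UNC5B and EFNA5 had the largest SDs on CQN values. SEMA6C had CQN values of 6.45, 6.73, 5.91, 6.27, 5.72, 6.42, 5.81 and 6.94 in replicates 1 to 8 (SD 0.44), still highest in replicates 8 and 2. SEMA7A had 2.60, 1.37, 2.62, 2.79, 3.25, 2.26, 3.26 and 1.55 (SD 0.70), with replicates 2 and 8 below every other library. UNC5B had 3.17, 2.95, 2.74, 2.91, 2.84, 3.21, 4.36 and 3.60, highest in replicate 7 (SD 0.53). The SD of EFNA5 rose from 0.18 on the CPM scale to 0.46 on CQN values, where replicates 8 and 2 became the highest. On CQN values, 4 of the 13 members (ROBO3, SEMA3B, SEMA6B and SEMA6C) still had replicates 2 and 8 as the 2 highest, and 4 of the 7 (PLXNA1, SEMA3C, SEMA4F and SEMA7A) still had them as the 2 lowest.

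**Figure D4:**
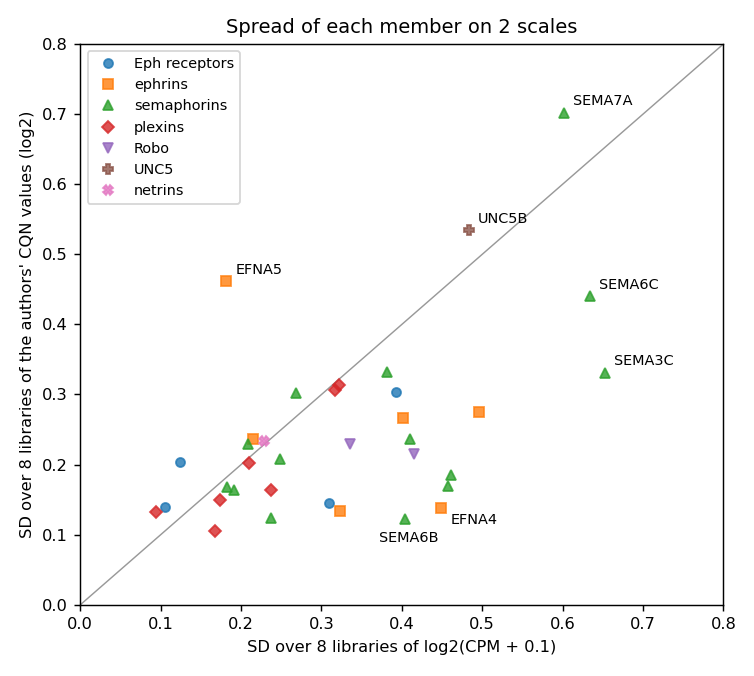
SD over 8 libraries on the CQN scale (vertical, log2) against the SD of log2(CPM + 0.1) (horizontal) for 35 detected members, marked by family; the line marks equal spread. SEMA6B and EFNA4 lie far under the line (0.12 and 0.14 on the CQN scale), and EFNA5, SEMA7A and UNC5B lie above it.

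The start regions of members were read from GRCh37 at the gene bounds of the deposited table, from 200 bases before to 20 bases after the start. They are shown for SEMA6C and SEMA3C, which were called for variation, and for SEMA7A and UNC5B, which were called with the CQN offsets. The neighbours ROBO4 and ROBO3 are also shown. On CPM both were highest in replicates 2 and 8, as were 33.7% of all detected genes, and on CQN values ROBO3 kept this and ROBO4 did not. Capitals mark the GC box GGGCGG on either strand. SEMA6C is chr1:151119121-151119340 (minus strand) and SEMA3C chr7:80548648-80548867 (minus strand). SEMA7A is chr15:74726280-74726499 (minus strand) and UNC5B chr10:72972092-72972311 (plus strand). ROBO4 is chr11:124767812-124768031 (minus strand) and ROBO3 chr11:124735105-124735324 (plus strand). All are printed 5′ to 3′ in the direction of the gene.
SEMA6C: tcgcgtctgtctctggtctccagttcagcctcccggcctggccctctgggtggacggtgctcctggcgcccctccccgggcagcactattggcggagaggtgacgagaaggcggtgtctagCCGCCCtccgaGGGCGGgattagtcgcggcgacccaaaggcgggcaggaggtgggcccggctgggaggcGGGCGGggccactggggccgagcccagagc
SEMA3C: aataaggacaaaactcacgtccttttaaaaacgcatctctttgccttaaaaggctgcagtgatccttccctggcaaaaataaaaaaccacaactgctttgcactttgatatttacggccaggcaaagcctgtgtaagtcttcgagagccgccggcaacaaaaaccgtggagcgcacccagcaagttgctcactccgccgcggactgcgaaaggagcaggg
SEMA7A: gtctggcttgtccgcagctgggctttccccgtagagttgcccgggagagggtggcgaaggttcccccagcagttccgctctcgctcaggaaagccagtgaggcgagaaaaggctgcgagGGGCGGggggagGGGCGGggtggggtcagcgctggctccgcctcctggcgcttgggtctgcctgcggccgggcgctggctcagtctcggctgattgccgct
UNC5B: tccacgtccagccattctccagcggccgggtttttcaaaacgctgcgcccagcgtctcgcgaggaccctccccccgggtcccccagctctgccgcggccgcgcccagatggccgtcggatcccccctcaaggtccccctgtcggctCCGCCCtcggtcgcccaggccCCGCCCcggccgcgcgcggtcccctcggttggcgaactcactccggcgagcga
ROBO4: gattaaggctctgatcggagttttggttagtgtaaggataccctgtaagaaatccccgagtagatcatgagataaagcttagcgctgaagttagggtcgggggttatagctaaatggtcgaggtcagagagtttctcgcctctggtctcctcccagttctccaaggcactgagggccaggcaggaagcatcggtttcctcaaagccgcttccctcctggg
ROBO3: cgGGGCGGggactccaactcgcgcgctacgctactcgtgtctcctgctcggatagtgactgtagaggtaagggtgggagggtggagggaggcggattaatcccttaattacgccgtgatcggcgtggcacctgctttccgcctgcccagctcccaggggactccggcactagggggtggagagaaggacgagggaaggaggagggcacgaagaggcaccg

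SEMA6C held 3 GC boxes, SEMA7A and UNC5B 2 each and ROBO3 1, while none was found in the windows of SEMA3C and ROBO4. The window of SEMA6C had a GC content of 72.7% and that of SEMA3C 49.5%. SEMA7A had 70.0%, UNC5B 74.5%, ROBO4 51.8% and ROBO3 64.1%. The CpG ratio, the CpG pairs observed over those predicted from base composition, was 0.696 for SEMA6C, 0.898 for SEMA3C, 0.691 for SEMA7A, 1.04 for UNC5B, 0.550 for ROBO4 and 0.837 for ROBO3. The table's start of SEMA3C is 300 bases from that of its canonical transcript, and those of the other 5 are at most 70 bases away.

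Detected and undetected members were also compared over the whole families. For some members the table's start lies far from that of the canonical transcript, by 533299 bases for SEMA6D, 72218 for PLXNA4 and 18417 for SEMA4D. Their windows may therefore miss the canonical start region. The median GC content was 70.0% for the 35 detected and 67.7% for the 31 other members, and the median CpG ratio was 0.779 and 0.729. Over all listed genes with a window, the same medians were 65.5% and 54.5% for GC, and 0.837 and 0.353 for the CpG ratio, in 11635 detected and 9818 other genes. A GC box was present in 27 of 35 detected members (77.1%) and 20 of 31 others (64.5%). Beside these stood 64.5% of detected and 30.1% of other listed genes, and 48.7% of all 21453 windows. The ETS motif CCGGAAG, searched on both strands, was found in PLXNB1 and EPHB6 among 66 members (3.03%), beside 9.75% of all windows, 15.2% of detected and 3.31% of other listed genes. TATAAA, also on both strands, was found in 0 of 66, beside 8.27% of all windows, 4.07% of detected and 13.2% of others. These are letter matches in a fixed window, given as a description.

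Partner genes of the families were taken from lists chosen from general knowledge. Of 19 listed surface partners, 12 were detected (beside 51.3% of all genes). NRP1, the neuropilin that binds SEMA3A, had 195 ± 52.8 CPM and NRP2, the neuropilin that binds SEMA3F, had 7.23 ± 2.10 CPM (SD, n = 8). ITGB1, the integrin subunit bound by SEMA7A, had 1515 ± 350.4 CPM, ADAM10, a protease that cleaves ephrins, had 143 ± 57.3 CPM, and PTK7 and MET had 142 ± 19.8 and 127 ± 46.2 CPM. The netrin receptors DCC and NEO1 were not detected, with 1 read pair in all for DCC and 1.21 CPM for NEO1, nor were RGMA, CD72, FLRT1, FLRT3 and DSCAM. ITGA1 and ADAM10 varied more than the trend in the edgeR fit (adjusted p = 0.0219 and 0.00883). Both were lowest in replicate 8, at 32.9 and 50.3 CPM, beside 31.1% of all detected genes with their lowest value there.

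Of 51 intracellular effectors, 44 were detected, beside 51.3% of all listed genes. CFL1, which cuts actin filaments, was highest at 984 ± 283 CPM, followed by the GTPases RHOA (917 ± 58.6), RAC1 (519.9 ± 50.7) and CDC42 (449 ± 19.2) and by ENAH (358 ± 109), an actin regulator. Of the 44, 6 varied more than the trend, beside 4.66% of all detected genes. These were ROCK1, ROCK2, TRIO, ABL2, ARHGEF12 and MICAL2 (edgeR adjusted p from 1.92e-07 to 0.0386). All 6 were lowest in replicate 8, the lowest library for 31.1% of all detected genes, a share not limited to genes called for variation. Their transcripts of 3903 to 12217 nt are longer than the median of 3351.5 nt over all detected genes, and the part of the length slope of replicate 8 was not tested. ROCK1 and ROCK2, the kinases downstream of RHOA, had 24.0 and 19.5 CPM there against maxima of 131 and 131 CPM in replicate 3. ARHGEF12, a plexin-B effector that activates RHOA, had 102 CPM in replicate 8 and 316 in replicate 1. The effectors not detected were DPYSL5, SRGAP3, VAV3, TIAM1, NGEF, CHN2 and GRIP1.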

How the data were processed

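RNA-seq counts for 8 hCMEC/D3 libraries were taken from the authors' deposited table. The file headers name raw counts per gene and CQN values, that is, log2 values after conditional quantile normalisation by the authors (the log2 scale was read from their range). CASAVA 1.9, TopHat2 2.0.6, HTSeq and hg19 are named in the submitters' processing notes; annotation and strand use are not given in the sources used here. Table starts were read as counting from 0 and printed 1-based on GRCh37. All 16 value columns were matched by replicate number, 0 were unmatched. The table held counts for named genes only.

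TMM-scaled CPM, the intercept-only fit and the goodness-of-fit test used edgeR 4.0.16 in R 4.3.3, on counts as deposited, for genes with at least 1 CPM in all libraries, with DESeq2 1.42.0 size factors and trend as alternatives. The fit was first tried on simulated data. Transcript lengths came from GENCODE 44 lifted to GRCh37, where all 66 members matched by symbol. Depths and floors of 3 read pairs cover counting error only. With 1 group, no group test or pairing applied.

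Named members were the 3 highest per family, those above the variation trend, those of the preset pairs, and any with a highest library over 4 times its lowest (0 did); other members could be named with means. Of the partner lists, the 5 highest and all above the trend were named; NRP2 and undetected genes were added after their values were seen. Members, lists, pairs and tests were chosen with earlier results of these data known.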

Additional observations from a re-analysis of the deposited data

Results flagged for a closer look

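Among the 35 detected members and 22 pair ratios, 57 sets of 8 values were examined for a library far from the rest, and chance sets off about 1 in 20. Replicate 7 was apart for UNC5B, the endothelial netrin receptor, at 18.7 CPM, with the next highest library at 11.8 CPM. The gap was 0.570 of the whole range. The log2 ratio of ROBO4 to UNC5B was likewise apart in replicate 7, at 3.37, with the next lowest at 4.67. The ratio shares the UNC5B values, so these are not separate observations.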

How the results depend on the processing

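All 22 pair ratios kept their direction and, where the test could reach the threshold, their side of it under every alternative run, including other pseudocounts, CPM without length, the longest transcript, the authors' CQN values (no value for pairs with a gene that lacks them) and each library left out; without replicates 2, 7 and 8 only 5 libraries remain and no test was made. Their sizes did move by over 1.5 times in some settings. EPHA2 to EFNA1, 0.41 per kilobase (log2), was 1.16 on CQN values and 1.76 without length. With 1 CPM added in place of 0.1, ratios to genes of low counts shrank: PLXND1 to SEMA3E was 8.65, ROBO4 to ROBO1 7.79, NTN4 to NTN1 7.17, SEMA6A to SEMA6B -7.46 and SEMA7A to PLXNC1 2.39, and ROBO4 to ROBO1 was 11.35 with 0.01 CPM. Without length, a ratio moves by the ratio of the transcript lengths. The number of detected members was 30 at 2 CPM, 36 at 0.5 CPM, 38 by mean CPM, 48 at 10 counts, 35 or 36 with 1 library left out, 37 without replicates 2 and 8 and 38 without replicates 2, 7 and 8. The 34 named levels moved by less than 1 SD under DESeq2 size factors or plain totals.

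The number of members above the variation trend, 2 in the edgeR fit, was 11 with the DESeq2 trend (beside 23.5% of all detected genes, 2811 against 558). It was 4 at a minimum of 10 counts (EPHA1 and SEMA3D added, beside 4.35%) and 1 with no filter (SEMA6C, beside 674 of all genes). With each library left out it was 0 to 1, beside 381 to 491 of all genes. It was 0 without replicate 5 or 8, beside 412 and 381 of all genes. It was 1 without replicates 2 and 8 (UNC5B, 335 of all genes) and 1 without replicates 2, 7 and 8 (SEMA6C, 297 of all genes). Both of these settings were chosen after seeing the data. Fewer libraries lower the power of the test; otherwise the cause was not tested. Depth limits the members near or under 3 read pairs per library, 9 of 66 by mean level.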
